A study of Mus musculus with 30 samples.

Results

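The class Epsilonproteobacteria was followed in the feces of 30 female C57BL/6 mice (C57BL/6J in the methods) by sequencing of the 16S rRNA gene. Its members were the amplicon sequence variants (ASVs, the sequences that were counted) assigned to that class in the authors' filtered table with at least 1 count in these mice. There were 83 of them, of 12980 ASVs with counts in all. They held 9029 counts. A further 161 rows of the class had no count in these mice and were left out. The mice were labelled as 6 weeks old and fell into 5 groups of 6. Control mice received the normal diet and saline by gavage, and model mice the high-fructose diet (HFru) and saline. The salidroside, tyrosol and hydroxytyrosol groups were fed HFru and given 50 mg/kg of salidroside, 23 mg/kg of tyrosol or 26 mg/kg of hydroxytyrosol by gavage. According to the methods, the doses of tyrosol and hydroxytyrosol were calculated by molar conversion, and that of salidroside came from an earlier experiment. The feeding lasted 8 weeks in the methods and 12 weeks in the figure legends. The labels name no cage and no sequencing run, so differences between cages or runs cannot be told apart from those between groups. The tests below treat the 6 mice of a group as independent. The class was chosen because it appeared to be lost under the fructose diet. All values of the mice on fructose beside the control mice are therefore given as a description, without a test.

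Epsilonproteobacteria of the mouse gut are mainly Helicobacter and its relatives in the family Helicobacteraceae. These are spiral, motile bacteria that need little oxygen, many of them use hydrogen as an energy source, and they live in the mucus of the cecum and colon. Helicobacter hepaticus is known for hepatitis and colitis in susceptible mouse strains, and Helicobacter rodentium is a frequent colonist of laboratory mice. All 83 members belonged to the Helicobacteraceae. The genus Helicobacter held 79 of them and 58.5% of the class counts. The other 4 members were an ASV of unclassified Helicobacteraceae with 36.5% of the counts, an ASV of Flexispira with 4.76%, an ASV of Sulfuricurvum, a genus of sulfur-oxidizing bacteria, with 0.133%, and an ASV of unidentified Helicobacteraceae with 0.111%. Within Helicobacter, 68 ASVs carried no species name, 7 were entered as unidentified, 2 were assigned to Helicobacter hepaticus and 2 to Helicobacter rodentium. The unclassified family group was thus 1 entry of the table, ASV_77217, and its values below are those of that entry.

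Per mouse, 41862 to 106609 counts remained in the filtered table. With 3 counts taken as the floor, a count of 0 still allows a share of up to 0.00281% in tyrosol mouse 3, which had the most counts in that table, and 0.00717% in control mouse 4, which had the fewest. The reads carry no molecular identifiers, so this floor and the Wilson intervals (95%) given for individual mice describe counting error alone. Shares are parts of a whole, so that less of the class and more of other bacteria cannot be told apart. Acinetobacter, a genus of Gammaproteobacteria, averaged 53.5% ± 30.3 (SD, n = 6) of the counts in the model group and 47.3% ± 30.2 in the tyrosol group. Its mean was 32.4% ± 29.8 with salidroside, 20.5% ± 24.96 in the control group and 11.2% ± 17.5 with hydroxytyrosol.

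The class was not lost as a whole: it was above 3 counts in all 30 mice in the filtered table. Control mice had 125, 751, 1833, 414, 133 and 1792 class counts (mice 1 to 6), which were shares of 0.171%, 1.04%, 2.19%, 0.989%, 0.180% and 2.14% of all counts. Model mice had 726, 13, 294, 5, 6 and 105 counts, or 0.828%, 0.0141%, 0.290%, 0.00512%, 0.00575% and 0.105%. Control mice 2, 3, 4 and 6 lay above every model mouse, whereas control mice 1 and 5 lay within the model range, and model mice 2, 4 and 5 held the lowest shares of all 30 mice. The Wilson interval was 2.09 to 2.29% in the highest mouse, control mouse 3, and 0.00219 to 0.0120% in the lowest, model mouse 4. The control group averaged 1.12% ± 0.893 (SD, n = 6) and the model group 0.208% ± 0.323, 5.38-fold lower, and the control mouse was the higher in 32 of 36 pairs. Without model mouse 1 the model mean was 0.0839% and the ratio 13.3-fold. With Acinetobacter left out of the totals, the means were 1.598% ± 1.72 and 0.574% ± 0.832, 2.78-fold lower. That ratio was 1.67 without control mouse 6 and 4.96 without model mouse 3.

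The treated groups covered narrower ranges. Salidroside mice held 0.523%, 0.346%, 0.0631%, 0.377%, 0.105% and 0.548%, with a mean of 0.327% ± 0.204 (SD, n = 6). Tyrosol mice held 0.142%, 0.227%, 0.0657%, 0.339%, 0.0879% and 0.0454%, with a mean of 0.151% ± 0.113. Hydroxytyrosol mice held 0.0503%, 0.0598%, 0.0231%, 0.123%, 0.146% and 0.0523%, with a mean of 0.0758% ± 0.0479. The shares of the hydroxytyrosol group did not overlap those of the control group: all 6 of its mice lay below every control mouse. Its mean was 14.7-fold lower. The nearest mice were hydroxytyrosol mouse 5 (0.146%, Wilson interval 0.123 to 0.175%) and control mouse 1 (0.171%, 0.143 to 0.203%). These intervals overlap, so the gap between the groups is not beyond counting error. The share of other classes or genera with such a gap was not computed, so nothing is read from it. Salidroside and tyrosol mice overlapped the control range, with means 3.42-fold and 7.39-fold lower. With Acinetobacter left out of the totals, these ratios were 2.28 and 4.09, and that of hydroxytyrosol mice was 18.5. Without control mouse 6 they were 1.36, 2.45 and 11.1, and without tyrosol mouse 4 that of tyrosol mice was 6.26. In order of the mean share, the groups stood as control, salidroside, model, tyrosol and hydroxytyrosol. The place of the model group rests on model mouse 1: without it the model mean lay below that of tyrosol mice, as did the model median (0.0593% against 0.115%). The tests of the neighbours among the mice on fructose are given further on.

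**Figure D1:**
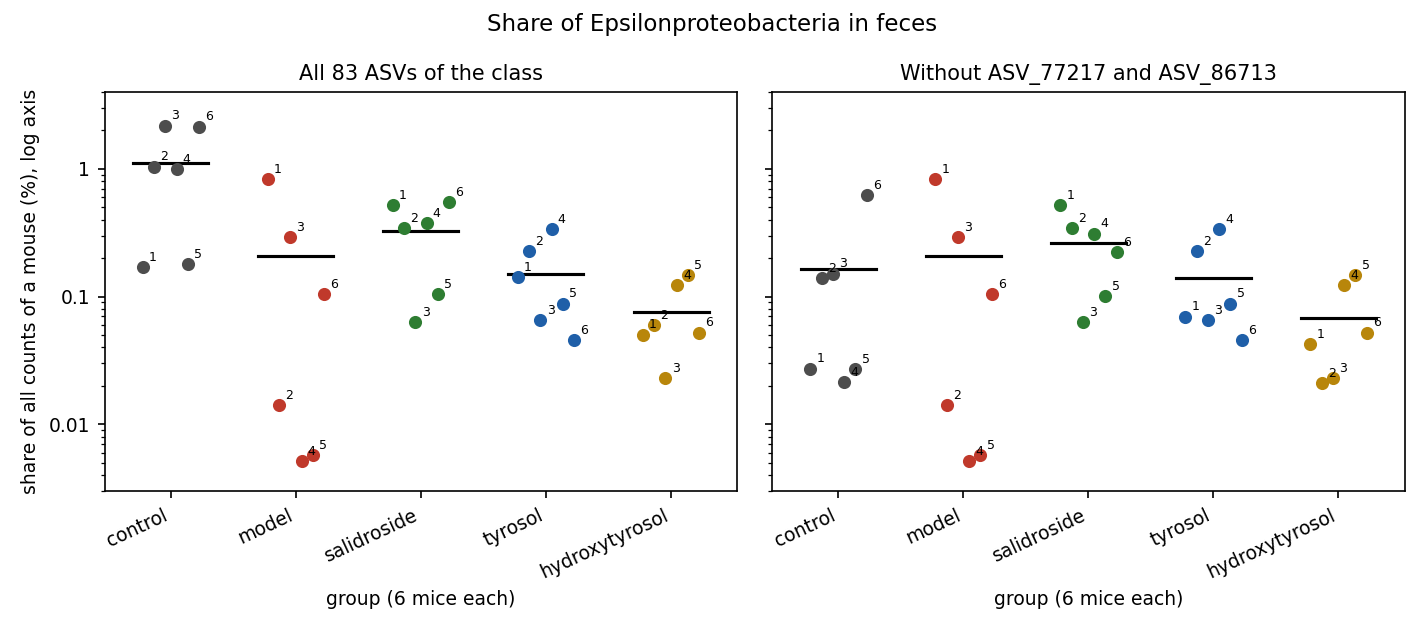
Share of Epsilonproteobacteria in all counts of a mouse, in percent on a log axis, for the 6 mice of each group (points with replicate numbers) and the group mean (line). On the left, with all 83 ASVs, 4 control mice lie above every model mouse; on the right, without ASV_77217 and ASV_86713, the control mean is 0.166% and the model mean 0.208%, each raised by 1 mouse (control mouse 6, model mouse 1), and the ranges of these groups overlap.

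The members counted in every control mouse and in no model mouse were a pair of sequences. ASV_77217, of the unclassified Helicobacteraceae, had 58, 383, 1350, 316, 73 and 753 counts in control mice 1 to 6, and ASV_86713, a Helicobacter without a species name, had 47, 267, 356, 89, 40 and 515. ASV_77217 was the most counted member in each of the 6 control mice. Together they made up between 70.8% and 97.8% of the class in a control mouse, with 0.264 to 0.810 counts of ASV_86713 for each count of ASV_77217. Both had 0 counts in every model mouse. ASV_77217 held 0.662% ± 0.572 (SD, n = 6) of all counts in control mice and ASV_86713 0.290% ± 0.221. Against 3 counts per model mouse, these means were at least 214-fold and at least 93.8-fold higher, or 153-fold and 72.7-fold without the highest control mouse. Of 411 ASVs that reached 10 counts in 4 or more of these 12 mice, 2 had counts in every control mouse and 0 in every model mouse (0.487%), and they were these 2 members. Every control mouse lay above every model mouse for 0.973% of these ASVs. Among 97 genera, 1.03% had counts in every control mouse and 0 in every model mouse, which was unclassified Helicobacteraceae alone, and 3.09% lay higher in every control mouse. This contrast is the one for which the class was chosen, and nothing is read from these shares.

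Without this pair, the class held 0.166% ± 0.233 of the counts in control mice (SD, n = 6, range 0.0215 to 0.627%) and 0.208% ± 0.323 in model mice (range 0.00512 to 0.828%). These ranges overlapped, and each mean rests on 1 mouse: without control mouse 6 the control mean was 0.0734%, and without model mouse 1 the model mean was 0.0839%. The pair was picked by its level in control mice, so the remainder is given as a description. With salidroside, tyrosol and hydroxytyrosol the remainder was 0.261% ± 0.170, 0.139% ± 0.118 and 0.0680% ± 0.0535.

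Some treated mice carried a sequence of the pair, and none of the 18 carried both. ASV_77217 was found in salidroside mice 4, 5 and 6, with 56, 4 and 299 counts, and had 0 counts in every tyrosol and hydroxytyrosol mouse. In salidroside mouse 6 it made up 59.4% of the class. ASV_86713 was found in tyrosol mouse 1 with 65 counts and in hydroxytyrosol mice 1 and 2 with 8 and 28 counts, and had 0 counts in every salidroside mouse. It made up 50.8% of the class in tyrosol mouse 1 and 65.1% in hydroxytyrosol mouse 2. In the 18 treated mice each of these sequences was present in 3 mice, at shares of at most 0.326% and 0.0720% of all counts. Every control mouse was above every salidroside mouse for ASV_86713 (1.16% of all ASVs that reached 10 counts in 4 or more of those 12 mice), above every tyrosol mouse for ASV_77217 (1.36%) and above every hydroxytyrosol mouse for both (2.85%), and these contrasts too are descriptions.

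In model mice the class consisted of other Helicobacteraceae. Model mice 1, 2, 3 and 6 held ASV_27985, an unidentified Helicobacter, with 264, 11, 236 and 53 counts, and it was the most counted member in model mice 2, 3 and 6. It had 0 counts in every control mouse. Flexispira, a close relative of Helicobacter, was found in model mice 1 and 4 alone, with 425 and 5 counts, and in model mouse 1 it made up 58.5% of the class. Model mouse 4, with 5 class counts in all, was the only mouse of the 30 without a count assigned to Helicobacter. Model mouse 5 held 6 counts of the class in all.

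ASV_87123, an unidentified Helicobacter, was found in treated mice alone. It had 211, 68, 11, 60, 51 and 180 counts in salidroside mice 1 to 6, and 42, 57, 8, 173, 56 and 0 in tyrosol mice. Hydroxytyrosol mice had 20, 0, 0, 0, 7 and 17 counts of it. It was thus present in 14 of 18 treated mice and had 0 counts in the 12 control and model mice. Of all 12980 ASVs, 82 were found in at least 14 treated mice, and 10 of these (12.2%) had 0 counts in control and model mice. No other member was found in so many mice.

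**Figure D2:**
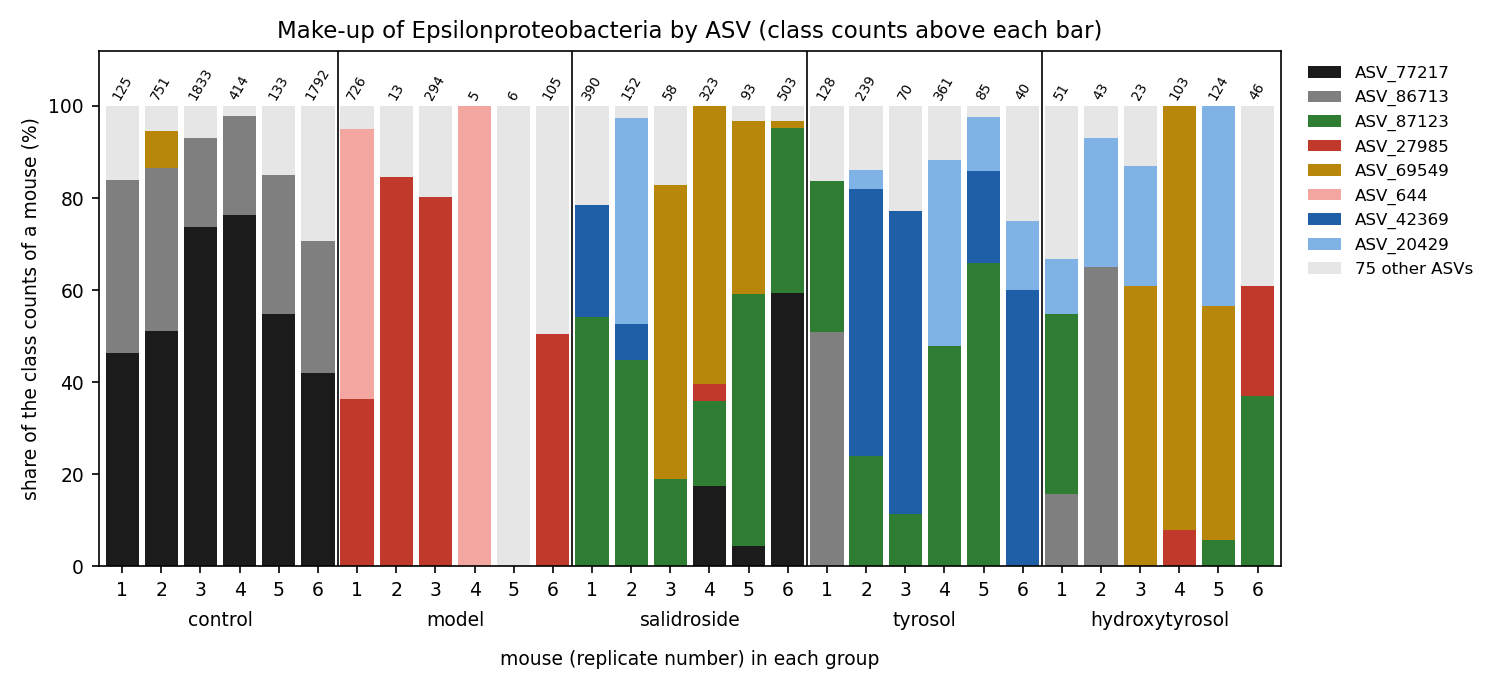
Make-up of the class in each mouse: the bars give the share of the class counts (percent, axis from 0) held by the 8 most counted ASVs and by the 75 others, with the class counts of the mouse above each bar. ASV_77217 and ASV_86713 (black and grey) make up 70.8 to 97.8% in control mice and are missing from model mice, where ASV_27985 (red) and ASV_644 of Flexispira (pink) take most of the class in mice 1 to 4 and 6.

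The remaining members of the 10 most counted also differed from mouse to mouse. ASV_69549, a Helicobacter without a species name, was found in control mouse 2 with 60 counts, in salidroside mice 3 to 6 with 37, 195, 35 and 8 counts and in hydroxytyrosol mice 3, 4 and 5 with 14, 95 and 63 counts. ASV_42369, also without a species name, was found in salidroside mice 1 and 2 with 95 and 12 counts and in tyrosol mice 2, 3, 5 and 6 with 139, 46, 17 and 24 counts. Of the 8 mice with ASV_69549 and the 6 mice with ASV_42369, 0 mice held both sequences. In the salidroside group each of the 6 mice held exactly 1 of them. Other pairs of members that were looked at had 2 to 6 mice in common. The share of all pairs of ASVs without a common mouse was not computed, so nothing is read from this.

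ASV_20429, an unidentified Helicobacter, was seen in 9 treated mice (1 salidroside, 4 tyrosol and 4 hydroxytyrosol mice) and had 0 counts in control and model mice. Of all ASVs, 41% were found in treated mice alone. The share among ASVs of as many treated mice was not computed for ASV_20429. Its highest counts were 68 in salidroside mouse 2, 146 in tyrosol mouse 4 and 54 in hydroxytyrosol mouse 5. Helicobacter hepaticus was found in control mice alone in the filtered table, as were 29.7% of all ASVs. ASV_3178, its main sequence, had 27, 74, 8 and 9 counts in control mice 2, 3, 5 and 6, and 0 in the other 26 mice. Helicobacter rodentium was found as ASV_59479 in control mouse 6 with 118 counts, in model mouse 6 with 38 and in tyrosol mouse 1 with 7. Its other sequence, ASV_18987, had 69 counts in control mouse 6, 6 in tyrosol mouse 1 and 16 in hydroxytyrosol mouse 6.

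**Figure D3:**
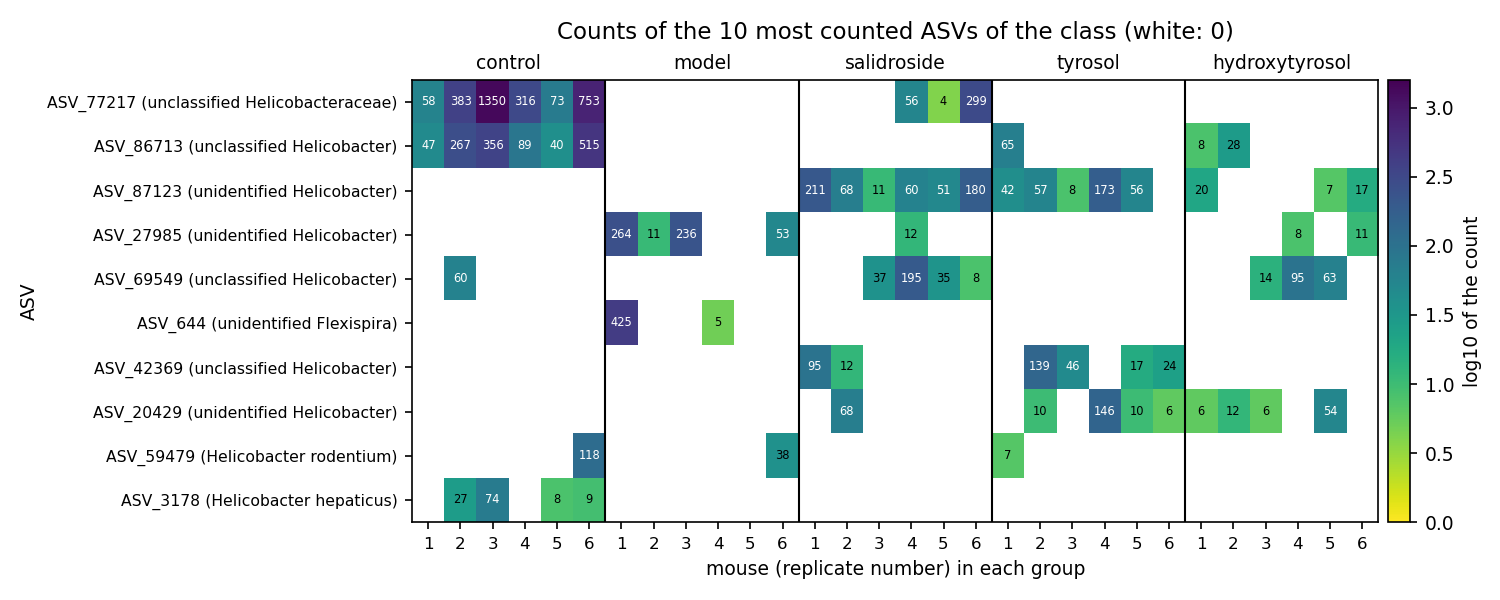
Counts of the 10 most counted ASVs of the class (rows, with the assigned taxon) in the 30 mice (columns), coloured by log10 of the count, with 0 in white. The first 2 rows are filled in all 6 control mice and empty in all 6 model mice, and the row of ASV_87123 is filled in 14 treated mice and in no control or model mouse.

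The 10 most counted members held 90.1% of the class counts, and 52 of the 83 members had under 10 counts. Of the 83 members, 63 (75.9%) were found in a single mouse, as were 71.1% of all 12980 ASVs. Control mice held 40 members, model mice 20, salidroside mice 14, tyrosol mice 17 and hydroxytyrosol mice 13. No member was found in all 5 groups, as against 1.73% of all ASVs. Of the 83 members, 32 were found in control mice alone (29.7% of all ASVs were), 43 in mice on fructose and not in control mice (60.3%) and 25 in treated mice alone (41%). Control and model mice shared 2 members (7.59% of all ASVs were shared by them), ASV_59479 and ASV_16491, a Helicobacter without a species name with 25 counts in control mice and 1 in model mice. They were 5% of the members of control mice and 10% of those of model mice, where over all ASVs these shares were 19.1% and 28.3%. A control mouse held between 4 and 22 members, a model mouse between 1 and 12, and a treated mouse between 2 and 7.

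Over all ASVs, the share of a mouse's counts in sequences that any control mouse held had medians of 83.04% in model, 70.1% in salidroside, 86.7% in tyrosol and 80.0% in hydroxytyrosol mice, with a lowest value of 40.7%. The same share of a mouse's class counts in sequences that any control mouse held was 36.2% in model mouse 6, 0.138% in model mouse 1 and 0% in the other 4 model mice. It ran from 0 to 77.7% in salidroside mice (median 53.1%) and from 23.5 to 92.2% in hydroxytyrosol mice (median 55.8%). In tyrosol mice it was 60.9% in mouse 1 and 0% in the other 5. Hydroxytyrosol mice thus held the lowest mean share of the class, and each had some class counts in sequences that at least 1 control mouse held. ASV_69549 accounted for all of it in hydroxytyrosol mice 3, 4 and 5. In salidroside mice 3, 4 and 5 it made up 63.8%, 60.4% and 37.6% of the class. Of the control mice, mouse 2 alone held ASV_69549, with 60 counts. In hydroxytyrosol mouse 6 the share was that of ASV_18987, which control mouse 6 alone of the control mice held. These shares therefore do not describe a likeness to control mice in general.

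Between treated and model mice the class and the genus Helicobacter did not pass the test. Mean shares were set against each other by exact permutation (two-sided, 6 against 6 mice, smallest possible p 0.0022), with p-values adjusted over 3 comparisons. Salidroside mice were 0.119 percentage points above model mice (95% interval -0.232 to 0.441, exact p = 0.439, adjusted p = 0.672), with the salidroside mouse higher in 27 of 36 pairs. Tyrosol mice differed from model mice by -0.0567 points (-0.362 to 0.198, exact p = 0.827, adjusted p = 0.827, higher in 22 of 36 pairs). Hydroxytyrosol mice differed by -0.132 points (-0.425 to 0.0860, higher in 20 of 36 pairs, exact p = 0.448, adjusted p = 0.672). The model mean rests on model mouse 1. Without that mouse the differences were 0.243, 0.0673 and -0.00810 points, not past the threshold after adjustment (p = 0.035, 0.351 and 0.896 by exact permutation test before it). The class was above 3 counts in 6 of 6 mice in each of these groups in the filtered table (Fisher's exact test, p = 1). At 10 counts or more it was found in 4 of 6 model mice and in 6 of 6 mice of each treated group (Fisher's exact test, p = 0.455), as it was above 3 counts in the rarefied table.

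For single genera, edgeR's quasi-likelihood test was fitted to all genera that reached 10 counts in 4 or more of the 12 mice compared. Of the class, Helicobacter alone passed this filter. Its log2 fold change was 0.64 (SE 1.30, adjusted p = 0.884) in salidroside, -0.18 (SE 1.24, adjusted p = 0.949) in tyrosol and -0.90 (SE 1.22, adjusted p = 0.696) in hydroxytyrosol mice against model mice. Its p was not under 0.05 before adjustment in any of the 3 comparisons, by edgeR or by DESeq2. Of all genera tested, 4.12%, 1.94% and 4.95% were called in these comparisons. With 1 mouse left out these shares lay between 2.11 and 4.30% for salidroside, 1.94 and 5.10% for tyrosol, and 1.02 and 11.6% for hydroxytyrosol, and with DESeq2 they were 7.22%, 6.796% and 12.9%. The tyrosol value changed sign under other scalings, and with 1 mouse left out the values ran from 0.53 to 1.98 for salidroside, from -0.87 to 0.46 for tyrosol and from -1.53 to -0.035 for hydroxytyrosol.

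At the level of single sequences, the members are described here without a test. In each comparison with model mice, 2 members reached 10 counts in 4 or more of the 12 mice for salidroside, 3 for tyrosol and 1 for hydroxytyrosol, and each did so through the group in which it was high. An edgeR call on such a member is therefore not read. Over all ASVs that reached these counts, edgeR called 3.63% higher in salidroside mice, 7.55% higher and 0.943% lower in tyrosol mice, and 32.8% in either direction in hydroxytyrosol mice. With 1 mouse left out these shares ran from 1.198 to 6.15%, from 5.18 to 10.1%, from 0.244 to 1.52% and from 16.1 to 48.3%.

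ASV_87123 had counts in all 6 salidroside mice, in 5 of 6 tyrosol mice and in no model mouse. Against 3 counts per model mouse, its mean share was at least 41.6-fold higher in salidroside mice, or 31.7-fold without the highest mouse. In tyrosol mice it was at least 17.7-fold higher, or 10.7-fold without tyrosol mouse 4. ASV_42369, with counts in 4 tyrosol mice and no model mouse, was at least 11.9-fold higher in tyrosol mice, or 5.68-fold without tyrosol mouse 2. ASV_27985 ran the other way: 4 model mice had it and no tyrosol mouse did, and its mean share in model mice was at least 32.7-fold higher, or 19.5-fold without model mouse 1. In salidroside mice ASV_27985 was found in 1 mouse and in hydroxytyrosol mice in 2, with 8 to 12 counts each.

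Salidroside is the glucoside of tyrosol, and hydroxytyrosol carries an additional phenolic hydroxyl group on the ring of tyrosol. The class share was compared over the 3 pairs of these compounds, with p-values adjusted over the 3. Salidroside mice were 0.251 percentage points above hydroxytyrosol mice (95% interval 0.0463 to 0.437, higher in 32 of 36 pairs). The exact permutation test gave p = 0.028, which did not remain under 0.05 after adjustment (adjusted p = 0.0844). Salidroside mice were 0.176 points above tyrosol mice (-0.0368 to 0.389, exact p = 0.093, adjusted p = 0.140, higher in 28 of 36 pairs). Hydroxytyrosol mice differed from tyrosol mice by -0.0754 points (-0.192 to 0.0312, higher in 10 of 36 pairs, exact p = 0.167, adjusted p = 0.167), and by -0.0377 points without tyrosol mouse 4. With Acinetobacter left out of the totals, the differences from hydroxytyrosol passed the threshold, at 0.614 points for salidroside over hydroxytyrosol and -0.304 points for hydroxytyrosol against tyrosol (adjusted p = 0.039 for each by exact permutation test). Each of these calls was lost in 8 of 12 cases with 1 mouse left out. For salidroside over hydroxytyrosol these were salidroside mice 1, 2, 4 and 6 and hydroxytyrosol mice 1, 2, 3 and 6 (0.394 to 0.741 points over the 12 cases). For hydroxytyrosol against tyrosol they were tyrosol mice 2, 3, 4 and 5 and the same hydroxytyrosol mice (-0.373 to -0.169 points, the latter without tyrosol mouse 4). Hydroxytyrosol mice had the lowest Acinetobacter shares on average, and the part of Acinetobacter in these differences was not otherwise tested.

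**Figure D4:**
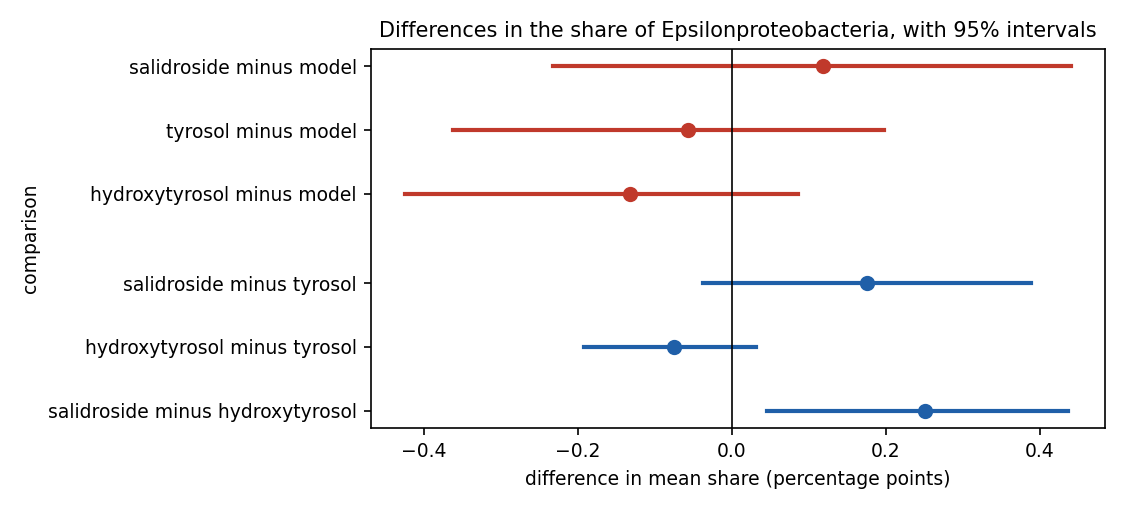
Difference in the mean share of Epsilonproteobacteria in percentage points (points) with 95% intervals from the exact permutation test (lines), for treated against model mice (red) and between treated groups (blue), 6 against 6 mice each. The interval of salidroside minus hydroxytyrosol, 0.0463 to 0.437, is the only one of the 6 that does not include 0.

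The mean shares of the other classes of Proteobacteria were not lower in model than in control mice. Alphaproteobacteria held 0.0790% ± 0.0772 in control and 1.72% ± 3.78 in model mice, and Betaproteobacteria 0.189% ± 0.0668 and 0.300% ± 0.261 (SD, n = 6). Gammaproteobacteria, which include Acinetobacter, held 32.4% ± 36.4 and 58.6% ± 31.7, and Deltaproteobacteria, which include the sulfate reducers, 0.677% ± 0.834 and 4.01% ± 6.88. Epsilonproteobacteria made up between 0.249 and 47.1% of the Proteobacteria in a control mouse and between 0.00641 and 1.38% in a model mouse. Several of these means rest on 1 mouse. Without the highest mouse of each group, Alphaproteobacteria held 0.0497% in control and 0.182% in model mice, Betaproteobacteria 0.172% and 0.199%, and Deltaproteobacteria 0.439% and 1.27%. These values are given side by side without a test.

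Of 4 other genera of the mucus layer or of hydrogen use, 3 passed the filter, and in their 9 comparisons of treated with model mice 0 calls were made by edgeR (adjusted p from 0.395 to 0.984), with 0 at an unadjusted p under 0.05. DESeq2 made 0 calls, with 1 at an unadjusted p under 0.05. Mucispirillum, a spiral bacterium of the mucus, held 0.0104% ± 0.0166 (SD, n = 6) in control and 0.462% ± 0.749 in model mice, and from 0.0982 to 0.337% on average in the treated groups. Without the highest mouse of each group, these means were 0.00389% and 0.194%, and from 0.0741 to 0.189% in the treated groups. Akkermansia, which degrades mucin, had 0 counts in control mice and held mean shares from 0.969% in salidroside to 1.42% in hydroxytyrosol mice. Without the highest mouse of each group, its means ran from 0.209% in model to 0.993% in hydroxytyrosol mice. Desulfovibrio, a sulfate reducer that uses hydrogen, held 0.548% ± 0.763 in control and 0.508% ± 0.735 in model mice, and from 0.0809 to 0.156% on average in the treated groups. Without the highest mouse of each group, these means were 0.318% and 0.242%, and from 0.0693 to 0.107% in the treated groups. Bilophila, which reduces sulfite, had at most 6 counts in a group and did not pass the filter.

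Over the 30 mice, the genera outside the class whose shares followed that of the class most closely were found among 178 genera present in at least 6 mice. Unclassified Burkholderiales ranked first (Spearman rho 0.590), with counts in 4 control, 1 model and 2 salidroside mice alone and a mean of 0.00572% in control mice, followed by Rikenella (0.571), Parabacteroides (0.538), unidentified S24-7 (0.531) and Bacteroides (0.507), of which the latter 4 belong to the Bacteroidetes. These are descriptions over mice that share 5 group means and a common total per mouse. Rikenella held 0.335% on average in control mice and was found in 5 of them, and in 1 model, 1 salidroside and no other mouse. Unidentified S24-7 held 17.2% on average in control mice and 0.252% in model mice. For Acinetobacter, rho was -0.0687.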

How the data were processed

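The sample labels gave each mouse its group, and their titles its replicate number. The methods describe merging of the reads with FLASH 1.2.11, filtering with QIIME 1.7.0 and removal of chimeras with UCHIME. They also describe grouping into operational taxonomic units at 97% similarity. The read log instead lists denoising before merging, and the entries are named as ASVs. The described steps may thus not be those behind the deposited counts, and whether an entry is 1 distinct sequence is unsettled. The submitters' processing notes name cutadapt. The authors deposited raw counts per sequence with a taxon each, before (unfiltered) and after (filtered) removal of singletons, and rarefied to 39768 counts. The taxonomy's version is not given in the sources used here.

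The members and lists were chosen with earlier results of these data known. Shares came from the filtered table. Means were compared by exact permutation tests over the 924 assignments of 6 and 6 mice, and intervals by inverting that test. Mice had between 41862 and 106609 counts. Counts per genus and per ASV were tested with edgeR 4.0.16 (R 4.3.3, TMM), over features that reached 10 counts in 4 or more of 12 mice, with Benjamini-Hochberg adjustment over all features tested; an SE is the log2 fold change over the root of its F statistic. The calls used a threshold of 0.05. DESeq2 1.42.0 was an alternative. The ASVs named are the 10 with the most counts. Also named, by rule, are the genera of the class, the 5 most similar genera, and those listed with Acinetobacter. ASV_16491 and ASV_18987 were named after their values were seen. Python 3.11.15 with scipy 1.17.1 was used. The procedures were tried on simulated data with large set differences, which does not give their error rates or power in these mice. No mice of a group had identical counts (0 pairs). Alternatives are given in the closing section.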

Additional observations from a re-analysis of the deposited data

Results flagged for a closer look

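In 39 sets of 6 mice with any spread (the class, its genera and the 10 most counted ASVs in each group), a mouse stood far from the other 5 of its group in 20, where chance flags about 1 in 20. Sets in which most mice have 0 counts are flagged easily. ASV_77217 and ASV_644 are the same sequences as unclassified Helicobacteraceae and Flexispira and are not listed again. Model mouse 1 stood apart in the class, with 0.828% of its counts, and in Flexispira, with 0.484%. Salidroside mouse 6 stood apart in unclassified Helicobacteraceae, with 0.326%, and salidroside mouse 1 in Sulfuricurvum, with 0.0161%. For ASV_86713, tyrosol mouse 1 held 0.0720% and hydroxytyrosol mouse 2 held 0.0389%. For ASV_87123, tyrosol mouse 4 held 0.163%. For ASV_27985, salidroside mouse 4 held 0.0140%. For ASV_69549, control mouse 2 held 0.0831% and salidroside mouse 4 held 0.227%. For ASV_42369, salidroside mouse 1 held 0.127% and tyrosol mouse 2 held 0.132%. For ASV_20429, salidroside mouse 2 held 0.155%, tyrosol mouse 4 held 0.137% and hydroxytyrosol mouse 5 held 0.0638%. For ASV_59479 of Helicobacter rodentium, control mouse 6 held 0.141%, model mouse 6 held 0.0379% and tyrosol mouse 1 held 0.00775%.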

How the results depend on the processing

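The differences of the class share from control mice kept their direction in the other tables, without Acinetobacter in the totals and without any 1 mouse, with ranges of -1.10 to -0.697 percentage points for model, -0.981 to -0.578 for salidroside, -1.16 to -0.753 for tyrosol and -1.23 to -0.829 for hydroxytyrosol mice with 1 mouse left out. Against model mice, the difference changed sign for tyrosol with log10 shares (0.381), mean ranks (1.33) and without model mouse 1, and for hydroxytyrosol with log10 shares (0.111) and mean ranks (0.667); no setting brought a call after adjustment. With 1 mouse left out, these differences ran from 0.0747 to 0.243 points for salidroside, -0.0972 to 0.0673 for tyrosol and -0.173 to -0.00810 for hydroxytyrosol.

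Between compounds, without Acinetobacter, the differences were 0.614 points for salidroside over hydroxytyrosol and -0.304 for hydroxytyrosol against tyrosol, past the threshold after adjustment, each call being lost in 8 of 12 cases with 1 mouse left out. Also past it were salidroside over hydroxytyrosol without salidroside mouse 3 or 5 (range 0.207 to 0.304 with 1 mouse left out) and salidroside over tyrosol without salidroside mouse 3 (range 0.131 to 0.228). Hydroxytyrosol against tyrosol ran from -0.0965 to -0.0377 points with 1 mouse left out. The cause was not tested.

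The log2 fold change of Helicobacter in tyrosol against model mice was 0.24 without TMM, 0.071 with DESeq2, 0.16 without a filter, 0.035 with all 30 mice in one model and from -0.87 to 0.46 with 1 mouse left out; no setting passed the threshold. Without a filter, 2 genera of the class were called for salidroside, unclassified Helicobacteraceae (higher) and Flexispira (lower), and 1 (Flexispira, lower) for each of tyrosol and hydroxytyrosol. Flexispira rests on model mice 1 and 4, and unclassified Helicobacteraceae on salidroside mice 4, 5 and 6, with 56, 4 and 299 counts. Each of these genera was called against a group with 0 counts, so these genus calls are not read as a result. In these fits without a filter, 11 of 332, 12 of 342 and 19 of 341 genera were called in all. In fits of single sequences, 1 of the 15 ASVs called for salidroside (358 tested) and 3 of the 36 called for tyrosol (424 tested) were members, each of which had entered the fit through the group in which it was high, so these calls are not read as a result. Means without the highest mouse of a group were added after seeing the data.

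Replicate numbers are those of the sample titles, and the tables number the model, salidroside and hydroxytyrosol mice differently, so that block and pairing values hold for the title numbers alone. Same-numbered mice shared only a number: the correlation of their deviations over 140 genera ran from -0.427 to 0.255 in 18 pairs and was over 0.1 in 3. With the replicate block, the log2 fold change of Helicobacter was 2.61 for salidroside, 1.48 for tyrosol and 0.41 for hydroxytyrosol, a change of sign for the latter pair, and none passed the threshold. The class share of salidroside over hydroxytyrosol had p = 0.094 by exact permutation within numbers.

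Counting a sequence as present above 3 counts in a mouse left 22 members in control, 9 in model and 8 in hydroxytyrosol mice, and the unfiltered table held 23 in salidroside mice. Depth limits members of a few counts: model mice 4 and 5 rest on 5 and 6 class counts.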
